A study of Mus musculus with 22 samples.

Results

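The genes described here encode 45 proteins that build and control the meiotic spindle, join it to the chromosomes or hold sister chromatids together. They were chosen by name as a list of mouse gene symbols, without kinesins and tubulins, and all 45 were found among the 52636 genes of the count table. Spindle and chromosome alignment defects are the known phenotype of mouse oocytes that lack RNA interference (RNAi). Of the 45 genes, 44 had enough reads to be tested. The exception was *Rec8*, which encodes the meiotic kleisin subunit of cohesin. *Rec8* was listed at 0 counts in 21 of the 22 samples and at 3 counts in the other, a double mutant.

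RNA was sequenced from pools of fully-grown germinal vesicle (GV) oocytes of C57BL/6 females in 2 runs. The single-end run, for which the labels give no ages, held 3 samples of wild type (*Dicer* WT/WT), 4 of *Dicer* ΔMT/ΔMT, 3 of *Dicer* SOM/SOM and 1 of *Dicer* ΔMT/WT. Among the paired-end samples every female carried at least 1 *Mili* DAH and 1 *Dicer* SOM allele. The 4 heterozygous controls were *Mili* DAH/WT with *Dicer* SOM/WT and 10 to 38 weeks old. The 2 RNAi mutants were *Mili* DAH/WT with *Dicer* SOM/SOM and 13 and 17 weeks old. The 4 double mutants were *Mili* DAH/DAH with *Dicer* SOM/SOM and 11 to 40 weeks old, and the only piRNA mutant was *Mili* DAH/DAH with *Dicer* SOM/WT and 16 weeks old. The ΔMT allele lacks the retrotransposon-derived promoter of Dicer O, the short and highly active oocyte form of Dicer, but a second element can still start a truncated transcript. The SOM allele encodes only tagged full-length Dicer, and all animals that carry it descend from 1 embryonic stem cell clone. The DAH allele makes MILI, a PIWI protein of the piRNA pathway, catalytically dead. The labels do not say whether samples of a group came from separate females, so p-values measure the spread between samples, which may be partly technical.

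A GV oocyte is arrested in meiotic prophase and stores messenger RNA for the divisions to come. When meiosis resumes, microtubules form a bipolar spindle without centrioles, kinetochores assembled on centromeric chromatin capture the microtubules, and the spindle assembly checkpoint holds back the anaphase-promoting complex until chromosomes are attached. Separase then cuts cohesin, first along the chromosome arms and later at the centromeres. In mouse oocytes Dicer O makes small interfering RNAs from double-stranded RNA, and these guide the cleavage of complementary messenger RNAs.

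Single-end samples had total counts of 6468380 to 90713013, and paired-end samples of 22928936 to 43540806. *Dicer1* was at 1001 to 1057 CPM (counts scaled to a common library size) in wild type, 428 to 536 CPM in *Dicer* ΔMT/ΔMT and 41.9 to 54.9 CPM in *Dicer* SOM/SOM. Markers of oocytes summed to between 11350 and 15120 CPM in every sample with all 10 markers detected, against 83.3 to 152 CPM for the 10 markers of granulosa and cumulus cells and 885 to 1245 CPM for 5 genes of dividing somatic cells. *Mki67*, at 627 to 975 CPM, made up most of the latter. The 8 blood markers summed to 72.7 to 97.2 CPM in *Dicer* SOM/SOM and 115 to 129 CPM in wild type, with 4 of the 8 at 3 counts or fewer in both groups. Nearly all of these sums came from 2 genes. *Ms4a1* was at 27.3 to 33.1 CPM in *Dicer* SOM/SOM and 47.6 to 49.7 CPM in wild type, and *Ighm* at 40.1 to 69.5 CPM and 67.0 to 79.6 CPM. The part of blood, granulosa, cumulus or dividing somatic cells in the results was not tested. Replicate 3 of *Dicer* SOM/SOM stood apart. It had the lowest total count and the highest level of *Gm42418*, a gene that overlaps ribosomal RNA (17430 CPM against 4798 to 12880 CPM in the other single-end samples), and it was the lowest of the 11 single-end samples for 21 of the 44 tested genes and the highest for 8. The calls in *Dicer* SOM/SOM that changed without it, and the values that moved most, are given with and without it. In the paired-end run *Gm42418* was at 294 to 557 CPM in control replicates 2 and 2o, double mutant replicates 2 and 2o and the piRNA mutant, and at 4086 to 5503 CPM in the other 6 samples. In bulk samples fewer cells of a type and less RNA per cell cannot be told apart.

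In control oocytes the spindle, kinetochore and cohesin genes were abundantly expressed. Per kilobase of exon, their median level was 43.6 RPKM, which is CPM divided by exon length, in wild type and 42.9 RPKM in heterozygous controls, while the median of all tested genes was 2.11 and 2.10 RPKM. In each of these groups, 41 of the 45 lay above the median of all tested genes. The 5 highest in wild type were *Bub1b*, the checkpoint kinase BubR1 (418 ± 8.61 RPKM, SD, n = 3), *Tacc3*, a spindle microtubule stabiliser (279 ± 14.0 RPKM), *Pttg1*, which encodes the separase inhibitor securin (191 ± 5.95 RPKM), *Ttk*, the checkpoint kinase MPS1 (152 ± 10.6 RPKM), and *Smc3*, a core cohesin subunit (119 ± 12.5 RPKM). The samples of the first 4 of these did not overlap with those of the next gene, whereas *Smc3* overlapped with the mitotic kinase gene *Plk1*. At the other end stood *Spc24*, an NDC80 complex subunit (6.45 ± 1.83 RPKM), *Stag3*, the meiotic cohesin subunit (1.07 ± 0.0964 RPKM), *Cenpb*, which encodes a centromeric DNA-binding protein (0.971 ± 0.122 RPKM), *Nsl1* of the MIS12 complex (0.307 ± 0.0713 RPKM) and *Rec8*. In the wild-type order, 31 of the 44 pairs of neighbours overlapped. The order was close to the same in both control groups, with a Spearman correlation of 0.982 over the 45 genes, which share annotation and length in both groups.

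**Figure D1:**
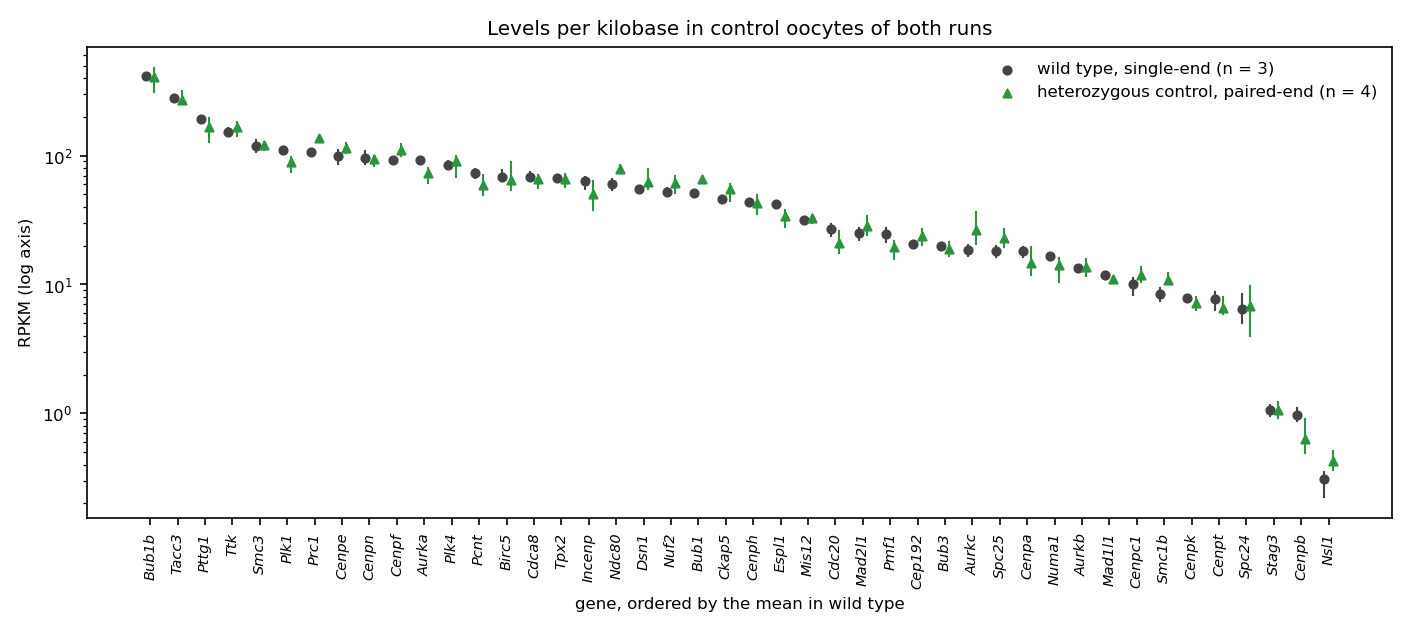
Levels in control oocytes in RPKM on a log axis for 44 genes ordered by their wild-type mean, with *Rec8* left out because it was listed at 0. Points are means and lines run from the lowest to the highest sample in wild type (n = 3) and heterozygous controls (n = 4). The levels fall gradually from *Bub1b* at 418 RPKM to *Spc24* at 6.45 RPKM, and *Stag3*, *Cenpb* and *Nsl1* form a separate low group.

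Of these messages, 17 of the 44 tested were called by edgeR in at least 1 of 6 comparisons and 27 in none. The share of all tested genes called in any of the 6, or in all 4 against controls, was not counted. Each single comparison is set beside its own background. In *Dicer* SOM/SOM against wild type, 13 of the 44 tested genes passed the threshold, an adjusted p under 0.05, with 7 higher and 6 lower. Over all 23151 tested genes the call was made for 28.6%, 14.5% higher and 14.2% lower, so the share was near the background. In this comparison the samples of the groups did not overlap for 18 of the 44 genes, against 41.4% of all tested genes. In *Dicer* ΔMT/ΔMT against wild type, 6 were higher and 2 lower, against a background of 15.4% (8.06% and 7.3%), and the groups did not overlap for 18 genes (background 33.6%). In the paired-end run, 4 were higher and 1 lower in RNAi mutants against heterozygous controls, where the background was 10.7% (7.07% and 3.64%) and the groups did not overlap for 14 genes (background 34.8%). In double mutants against the same controls, 6 were higher and 2 lower, with a background of 21.2% (12.3% and 8.84%) and 7 genes whose groups did not overlap (background 23.3%). Both comparisons of the single-end run use the same wild-type samples, and both of the paired-end run the same controls.

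Most of the changes were small. In *Dicer* SOM/SOM log2 fold changes had a median size of 0.20 for the 44 genes and 0.42 for all tested genes. Many of all tested genes are scarcely expressed, and among genes at 10 RPKM or more in wild type the median size was 0.17 for 37 of the spindle, kinetochore and cohesin genes and 0.24 for all 5863. Of those 37, 10 were called (27.0%), against 33.4% of the 5863. Few genes moved by a log2 fold change of 1 or more: *Stag3* and *Prc1* in *Dicer* SOM/SOM, these and *Cenpk* in RNAi mutants, and *Stag3* and *Prc1* in double mutants. Without replicate 3 of *Dicer* SOM/SOM, 11 genes were called, 7 higher and 4 lower, and all 11 were among the 13. The share of all tested genes called was then 26.6% (13.5% higher and 13.2% lower). Without replicate 1 of wild type 7 remained, 5 of them higher, as *Bub1*, *Bub3*, *Espl1*, *Cenpc1*, *Plk4* and *Ckap5* no longer passed.

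**Figure D2:**
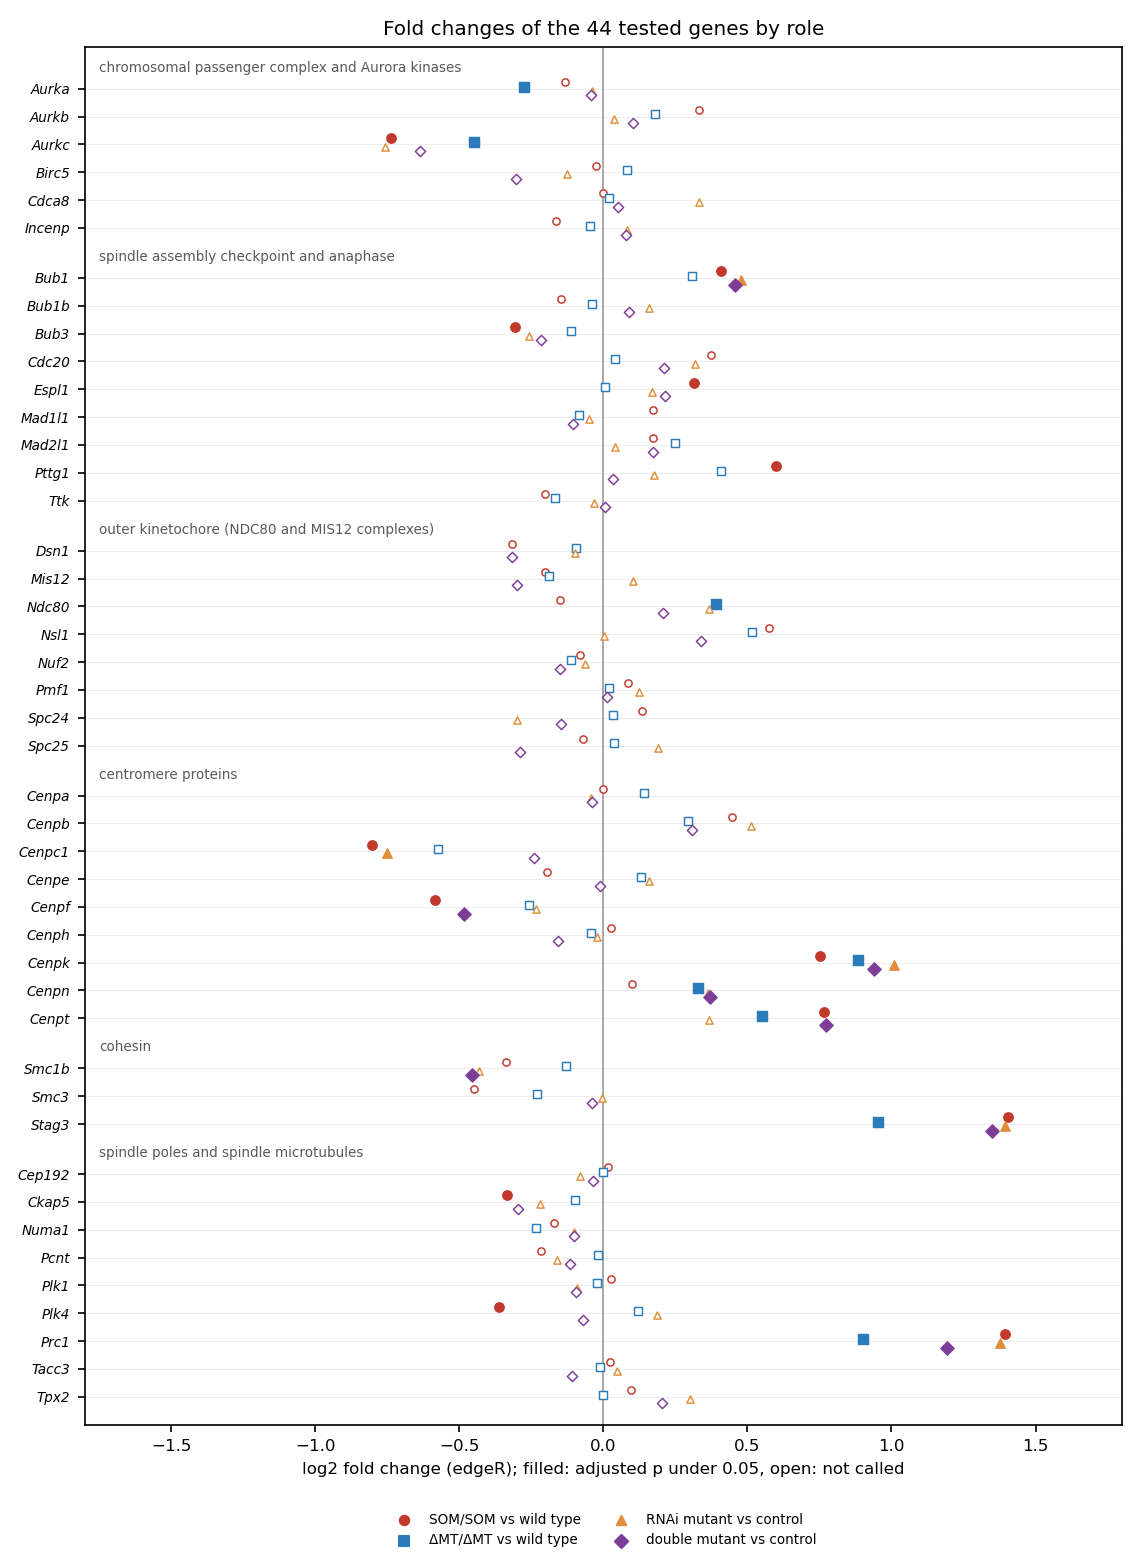
The log2 fold changes of the 44 tested genes in 4 comparisons of mutants with controls, grouped by role. Filled symbols mark genes with an adjusted p under 0.05 in edgeR and open symbols the rest. Most symbols lie near 0, and *Stag3* and *Prc1* lie farthest to the right in all 4 comparisons, with *Cenpk* close to them in *Dicer* ΔMT/ΔMT (0.88 against 0.90 for *Prc1*).

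Promoters of genes for mitosis and meiosis often carry the cell cycle genes homology region (CHR, letters TTTGAA), bound by the DREAM and MuvB complexes, near CCAAT boxes. RefSeq promoter windows (GRCm38.p6, from 250 bases before to 50 after a gene's start) were found for 39 of the 45 genes. On either strand TTTGAA was found in 40.9% of their 44 windows and in 17.9% of 32851 windows of all genes, CCAAT in 68.2% and 37.4%, and both, where a shared base was allowed, in 38.6% and 6.95%. CHR letters were present in 6 of 15 genes called in *Dicer* SOM/SOM or double mutants and in 10 of 24 that were not. The windows of 30 bases printed here show the letters (in capitals, TTCAAA where the match is on the other strand) in genes that rose (*Prc1*, *Espl1*), fell (*Bub3*, *Ckap5*, *Cenpf*) or were not called (*Cdc20*). Each is read 5′ to 3′ on the strand of the gene.
Prc1, chr7:80294434-80294463, plus strand: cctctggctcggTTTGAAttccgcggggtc
Espl1, chr15:102296254-102296283, plus strand: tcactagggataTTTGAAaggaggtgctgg
Bub3, chr7:131560315-131560344, plus strand: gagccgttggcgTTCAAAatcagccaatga
Ckap5, chr2:91526705-91526734, plus strand: gcccacagctctTTCAAAcggaccaataaa
Cenpf, chr1:189688067-189688096, minus strand: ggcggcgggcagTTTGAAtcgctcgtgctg
Cdc20, chr4:118437344-118437373, minus strand: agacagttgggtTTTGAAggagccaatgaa
The *Bub3*, *Cdc20* and *Ckap5* stretches also hold the letters CCAAT. A match is a description of these letters and not evidence of binding in these oocytes.

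Of the genes above 10 CPM in wild type, *Prc1* changed most. It encodes the antiparallel microtubule crosslinker of the central spindle (ENSMUSG00000038943.16, GRCm38 chr7:80294450-80316259, plus strand). In the single-end run it was at 327, 328 and 332 CPM in wild type, at 586, 646, 639 and 585 CPM in *Dicer* ΔMT/ΔMT and at 918, 883 and 790 CPM in *Dicer* SOM/SOM. The 3 groups did not overlap, and the ΔMT/ΔMT samples lay between the others. The log2 fold change against wild type was 0.90 in *Dicer* ΔMT/ΔMT (SE 0.0756, adjusted p = 4.19e-05) and 1.39 in *Dicer* SOM/SOM (SE 0.0805, adjusted p = 1.05e-06), or 1.45 without replicate 3. The difference of *Dicer* SOM/SOM from *Dicer* ΔMT/ΔMT was itself called, at 0.49 (SE 0.0735, adjusted p = 0.00285).

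Among the paired-end samples *Prc1* was at 437, 415, 403 and 418 CPM in heterozygous controls, at 1085 and 1087 CPM in RNAi mutants and at 912, 928, 919 and 1062 CPM in double mutants. No RNAi or double mutant reached down to the controls. On the log2 scale the change was 1.38 in RNAi mutants (SE 0.114, adjusted p = 3.47e-06) and 1.19 in double mutants (SE 0.0977, adjusted p = 1.64e-06). All double mutants lay below the RNAi mutants, but the difference of -0.18 (SE 0.117) was not called. The piRNA mutant, which keeps a *Dicer* WT allele, was at 427 CPM, within the range of the controls, and the *Dicer* ΔMT/WT sample at 351 CPM lay just above wild type.

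*Prc1* is the only one of the 45 genes in the study's list of potential siRNA targets. Its 3′ end overlaps on the opposite strand with exons of *Rccd1*, a gene that is also in that list, over 670 bases (GRCm38 chr7:80315590-80316259), which make up 21.8% of the *Prc1* exon length. Counting ignored strand, so reads from this stretch cannot be assigned to 1 of the genes. *Rccd1* moved in the same direction, with a log2 fold change of 1.47 in *Dicer* SOM/SOM (SE 0.115, adjusted p = 6.79e-06), 0.84 in *Dicer* ΔMT/ΔMT (SE 0.107, adjusted p = 0.000465), 1.19 in RNAi mutants (SE 0.199, adjusted p = 0.00131) and 1.28 in double mutants (SE 0.170, adjusted p = 0.000112). Its mean was 76.2 ± 0.961 CPM in wild type and 211 ± 24.0 CPM in *Dicer* SOM/SOM (SD, n = 3 each). The share of either gene's change that comes from the overlap was not tested.

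**Figure D3:**
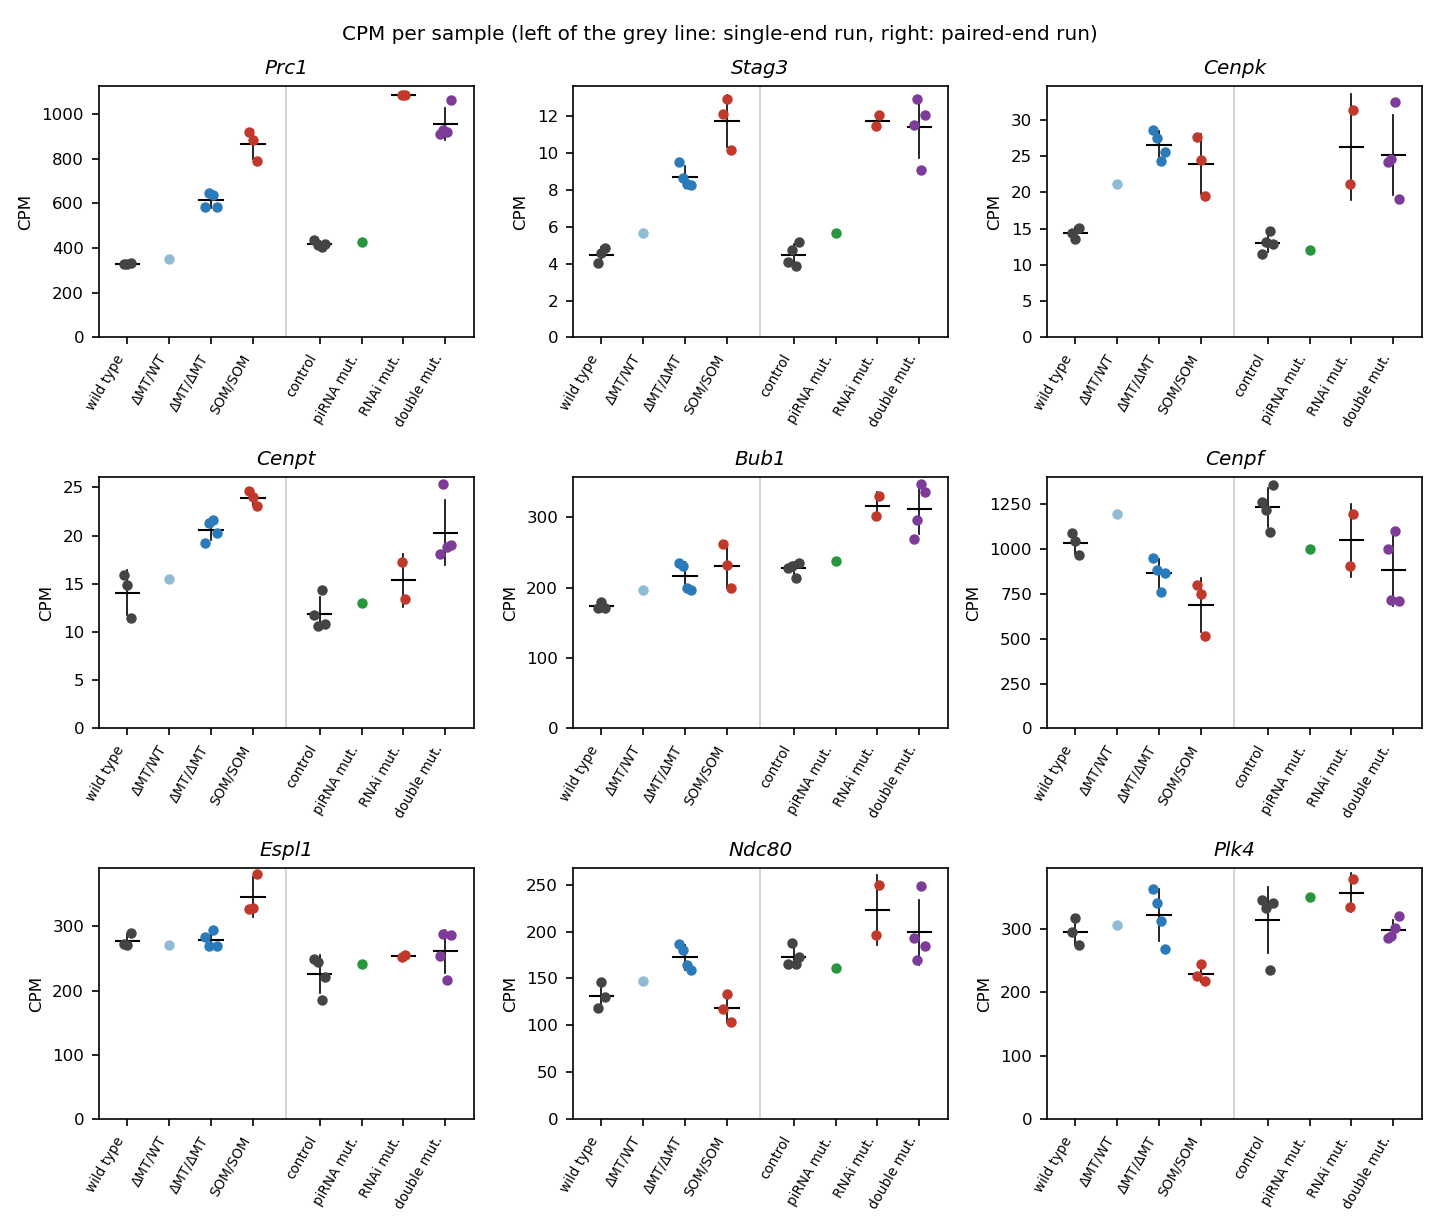
CPM of 9 genes in each sample, with the single-end run to the left of the grey line and the paired-end run to the right, on axes that start at 0. Points are samples, horizontal bars group means and vertical bars 1 SD. *Prc1*, *Stag3*, *Cenpk* and *Bub1* separate mutants with 2 *Dicer* mutant alleles from controls in both runs, while *Cenpf*, *Espl1*, *Ndc80* and *Plk4* overlap between groups in at least 1 run.

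Of the 3 tested cohesin genes among the 45, only *Stag3* was higher. It encodes the STAG subunit of meiotic cohesin (ENSMUSG00000036928.14, GRCm38 chr5:138280526-138312393, plus strand). It was at 4.05, 4.58 and 4.84 CPM in wild type, at 9.55, 8.64, 8.34 and 8.26 CPM in *Dicer* ΔMT/ΔMT and at 12.2, 13.0 and 10.2 CPM in *Dicer* SOM/SOM. As for *Prc1*, the 3 groups did not overlap and the ΔMT/ΔMT samples lay in the middle. The log2 fold change against wild type was 0.95 in *Dicer* ΔMT/ΔMT (SE 0.124, adjusted p = 0.000526) and 1.41 in *Dicer* SOM/SOM (SE 0.134, adjusted p = 2.52e-05), or 1.48 without replicate 3.

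In the paired-end run *Stag3* was at 4.08, 4.77, 3.89 and 5.20 CPM in heterozygous controls, at 11.5 and 12.1 CPM in RNAi mutants and at 11.5, 12.9, 9.07 and 12.1 CPM in double mutants. Mutants and controls were again apart. Its log2 fold change was 1.40 in RNAi mutants (SE 0.205, adjusted p = 0.000504) and 1.35 in double mutants (SE 0.176, adjusted p = 9.56e-05). Per kilobase, its mean of 2.79 RPKM in *Dicer* SOM/SOM was still below that of *Spc24* in wild type. The further step in *Dicer* SOM/SOM above *Dicer* ΔMT/ΔMT (0.45, SE 0.122, adjusted p = 0.0476) was lost in 12 of 15 alternative fits.

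*Smc1b* and *Smc3* were not higher in any of these comparisons. *Smc1b*, the meiotic SMC subunit, fell in double mutants, from 43.5 ± 4.01 CPM (SD, n = 4) to 31.7 ± 2.32 CPM (n = 4), a log2 fold change of -0.45 (SE 0.126, adjusted p = 0.0195). In RNAi mutants its value was -0.43 (adjusted p = 0.105) and in *Dicer* SOM/SOM -0.34 (adjusted p = 0.0921), both short of the threshold. The call in double mutants was lost without double mutant replicate 2o (adjusted p = 0.0624) or control replicate 2o (adjusted p = 0.0591). *Smc3* was at 572, 639 and 518 CPM in wild type and at 487, 480 and 298 CPM in *Dicer* SOM/SOM, where the lowest value is that of replicate 3 (log2 fold change -0.45, adjusted p = 0.0577). Without replicate 3 the value was -0.26 (adjusted p = 0.0579), while DESeq2 made the call, as did edgeR without SOM/SOM replicate 1 or 2.

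The 9 centromere proteins held both rises and falls. *Cenpk*, a subunit of the constitutive centromere network (ENSMUSG00000021714.15, GRCm38 chr13:104228955-104249617, plus strand), was at 14.4, 13.5 and 15.2 CPM in wild type, at 28.6, 27.5, 24.3 and 25.6 CPM in *Dicer* ΔMT/ΔMT and at 27.6, 24.5 and 19.4 CPM in *Dicer* SOM/SOM. Here both mutants lay above wild type and overlapped with each other. Among the paired-end samples it was at 11.6, 13.2, 14.7 and 12.9 CPM in heterozygous controls, at 21.1 and 31.4 CPM in RNAi mutants and at 24.1, 24.7, 32.5 and 19.2 CPM in double mutants. The log2 fold change came to 0.88 in *Dicer* ΔMT/ΔMT (SE 0.122, adjusted p = 0.000787), 0.75 in *Dicer* SOM/SOM (SE 0.130, adjusted p = 0.00155), 1.01 in RNAi mutants (SE 0.220, adjusted p = 0.00832) and 0.94 in double mutants (SE 0.186, adjusted p = 0.00238). With *Prc1* and *Stag3* it was 1 of 3 genes called in all 4 comparisons of mutants with controls, but in RNAi mutants the call was lost without replicate 2 (0.70, adjusted p = 0.209).

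*Cenpt*, a centromere protein that recruits the NDC80 complex (ENSMUSG00000036672.5, GRCm38 chr8:105844677-105852054, minus strand), was at 15.9, 14.8 and 11.4 CPM in wild type, at 19.2, 21.3, 21.6 and 20.3 CPM in *Dicer* ΔMT/ΔMT and at 24.6, 24.0 and 23.1 CPM in *Dicer* SOM/SOM. It was at 11.7, 10.7, 14.4 and 10.8 CPM in heterozygous controls, at 17.3 and 13.4 CPM in RNAi mutants and at 18.0, 25.3, 18.8 and 19.1 CPM in double mutants. One RNAi mutant lay within the range of the controls, whereas all double mutants lay above it. On the log2 scale the change came to 0.77 in *Dicer* SOM/SOM (SE 0.127, adjusted p = 0.00114), 0.55 in *Dicer* ΔMT/ΔMT (SE 0.118, adjusted p = 0.00996) and 0.77 in double mutants (SE 0.170, adjusted p = 0.00506), and 0.37 in RNAi mutants (SE 0.206, adjusted p = 0.317), which was not called.

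*Cenpf*, a large kinetochore and nuclear envelope protein (ENSMUSG00000026605.14, GRCm38 chr1:189640606-189688086, minus strand), moved the other way. It was at 1092, 1046 and 966 CPM in wild type, at 952, 883, 761 and 865 CPM in *Dicer* ΔMT/ΔMT and at 799, 750 and 518 CPM in *Dicer* SOM/SOM. All *Dicer* SOM/SOM samples were below wild type, and replicate 3 was the lowest. In the paired-end run it was at 1261, 1217, 1097 and 1361 CPM in heterozygous controls, at 907 and 1194 CPM in RNAi mutants and at 1000, 717, 1101 and 712 CPM in double mutants, so that 1 double mutant overlapped with the controls. The 717 and 712 CPM are the double mutants low in *Gm42418* and the 1217 and 1097 CPM the controls low in it, and within both sets all double mutants lay below the controls. With a term for this split the log2 fold change in double mutants was -0.51 (adjusted p = 0.00496). Its log2 fold change came to -0.58 in *Dicer* SOM/SOM (SE 0.145, adjusted p = 0.0118), or -0.42 without replicate 3 (adjusted p = 0.00919), and -0.48 in double mutants (SE 0.155, adjusted p = 0.0397), a call that 10 of 18 alternative fits did not make. These include the fits without double mutant replicate 2o or 2, either RNAi mutant, or control replicate 1o, 2o or 3 (adjusted p = 0.0531 to 0.123).

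*Cenpc1*, which links centromeric nucleosomes to the outer kinetochore, had the lowest log2 fold change of the 9 in *Dicer* SOM/SOM (17.8 ± 6.11 CPM against 32.0 ± 4.84 CPM, SD, n = 3 each). Its log2 fold change was -0.80 (SE 0.212, adjusted p = 0.0160), or -0.61 without replicate 3, and was lost without wild-type replicate 1 (adjusted p = 0.0571). It was also lower in RNAi mutants (-0.75, SE 0.190, adjusted p = 0.0198), though not without either RNAi mutant (adjusted p = 0.0653 and 0.221), with a value of -0.24 in double mutants (adjusted p = 0.290). *Cenpn*, which binds the centromeric histone CENP-A, rose in *Dicer* ΔMT/ΔMT (0.33, SE 0.0830, adjusted p = 0.0224) and in double mutants (0.37, SE 0.110, adjusted p = 0.0280). The first of these calls was lost without wild-type replicate 1 or 3 or ΔMT/ΔMT replicate 2 (adjusted p = 0.0537 to 0.0938), and the second without control replicate 3 (adjusted p = 0.0508). *Cenpn* was not called in *Dicer* SOM/SOM against wild type (0.098, adjusted p = 0.448) or against *Dicer* ΔMT/ΔMT (-0.23, adjusted p = 0.122). Nor was it called in RNAi mutants (0.36, adjusted p = 0.106). *Cenpa* itself, *Cenpb*, *Cenpe* (a kinetochore motor) and *Cenph* were called in none of the 6 comparisons by edgeR.

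Of the 8 outer kinetochore genes none was called by edgeR in *Dicer* SOM/SOM, RNAi mutants or double mutants against controls. The shares of all tested genes called in these comparisons were 28.6%, 10.7% and 21.2%. For 2, 1 and 2 of the 8 genes the unadjusted p in edgeR was under 0.05, and DESeq2 called *Dsn1* of the MIS12 complex in *Dicer* SOM/SOM. The only gene of the group called by edgeR in any of the 6 comparisons was *Ndc80*, the microtubule-binding subunit that gives the NDC80 complex its name. It was at 118, 146 and 130 CPM in wild type, at 187, 180, 164 and 159 CPM in *Dicer* ΔMT/ΔMT and at 117, 133 and 104 CPM in *Dicer* SOM/SOM. The ΔMT/ΔMT samples lay above both other groups, which overlapped. The log2 fold change came to 0.39 in *Dicer* ΔMT/ΔMT against wild type (SE 0.107, adjusted p = 0.0317) and -0.54 in *Dicer* SOM/SOM against *Dicer* ΔMT/ΔMT (SE 0.108, adjusted p = 0.0131), or -0.46 without SOM/SOM replicate 3. The first call was lost without wild-type replicate 1 or 3 or ΔMT/ΔMT replicate 1 or 2 (adjusted p = 0.0799 to 0.140). Among the paired-end samples *Ndc80* was at 165 to 187 CPM in heterozygous controls, at 197 and 249 CPM in RNAi mutants and at 170 to 249 CPM in double mutants, without a call. With a term for the *Gm42418* split, *Mis12* and *Dsn1* were called lower in double mutants, and without SOM/SOM replicate 1 *Dsn1* was called in *Dicer* SOM/SOM. *Nuf2*, *Spc24*, *Spc25*, *Nsl1* and *Pmf1* were called under none of the alternatives.

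Of the 9 checkpoint and anaphase genes, 3 were higher and 1 lower in *Dicer* SOM/SOM, beside 14.5% and 14.2% of all tested genes. A difference between the roles was not tested. *Bub1*, the checkpoint kinase that marks centromeric chromatin for shugoshin (ENSMUSG00000027379.13, GRCm38 chr2:127801122-127831865, minus strand), was at 171, 180 and 171 CPM in wild type, at 236, 231, 200 and 197 CPM in *Dicer* ΔMT/ΔMT and at 262, 232 and 199 CPM in *Dicer* SOM/SOM. In the paired-end run it was at 228, 231, 214 and 235 CPM in heterozygous controls, at 302 and 330 CPM in RNAi mutants and at 270, 295, 347 and 336 CPM in double mutants. All samples of these mutants lay above the controls of their run. On the log2 scale the change came to 0.41 in *Dicer* SOM/SOM (SE 0.111, adjusted p = 0.0183), 0.48 in RNAi mutants (SE 0.133, adjusted p = 0.0336) and 0.46 in double mutants (SE 0.110, adjusted p = 0.00849), and 0.31 in *Dicer* ΔMT/ΔMT (SE 0.104, adjusted p = 0.0697), short of the threshold. The call in *Dicer* SOM/SOM was lost without wild-type replicate 1 or 3 or SOM/SOM replicate 1 (adjusted p = 0.0602 to 0.0705), and that in RNAi mutants without either RNAi mutant or control replicate 1o, 2o or 3 (adjusted p = 0.0562 to 0.249). In RNAi mutants it was also lost with a term for age (0.41, adjusted p = 0.0983).

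*Espl1*, which encodes separase, was at 273, 271 and 289 CPM in wild type, at 283, 269, 295 and 270 CPM in *Dicer* ΔMT/ΔMT and at 327, 329 and 381 CPM in *Dicer* SOM/SOM. All *Dicer* SOM/SOM samples stood above the other single-end groups. Its log2 fold change was 0.31 against wild type (SE 0.0826, adjusted p = 0.0159) and 0.31 against *Dicer* ΔMT/ΔMT (SE 0.0769, adjusted p = 0.0371), and without replicate 3 the latter missed the threshold (0.23, adjusted p = 0.0514). It was also lost without any 1 of the wild-type or ΔMT/ΔMT samples (adjusted p = 0.0526 to 0.111), and the former without wild-type replicate 1 or 2 (adjusted p = 0.0632 and 0.0588). The paired-end values were 0.17 in RNAi mutants and 0.22 in double mutants, without a call.

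*Pttg1*, the inhibitor of separase, was also higher in *Dicer* SOM/SOM, at 455, 406 and 673 CPM against 339, 326 and 347 CPM in wild type. The highest value is that of replicate 3, and the log2 fold change of 0.60 (SE 0.152, adjusted p = 0.0131) became 0.35 without it (adjusted p = 0.00499). When only these 2 groups were fitted, the calls of *Pttg1* (adjusted p = 0.0524), *Espl1* (adjusted p = 0.0603) and *Bub3* (adjusted p = 0.0748) were lost. *Bub3*, a partner of BUB1 and BubR1 at kinetochores, was lower (72.3 ± 5.83 CPM against 89.6 ± 2.79 CPM, SD, n = 3 each) with a log2 fold change of -0.31 (SE 0.0882, adjusted p = 0.0236), a call lost without wild-type replicate 1 or 3 or SOM/SOM replicate 1 (adjusted p = 0.0551 to 0.0772). *Bub1b*, the most abundant of the 45 in wild type, was called in none of the 6 comparisons, nor were *Mad1l1*, *Mad2l1*, *Ttk* and *Cdc20*, the activator of the anaphase-promoting complex. *Cdc20* was called in *Dicer* SOM/SOM without SOM/SOM replicate 1 or ΔMT/ΔMT replicate 4, and in RNAi mutants with a term for the *Gm42418* split.

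In *Dicer* SOM/SOM, 28.6% of all tested genes were called. Of the 6 genes for Aurora kinases and the chromosomal passenger complex, only *Aurkc*, the kinase form used in meiosis, was called there. It was lower in *Dicer* SOM/SOM (17.2 ± 3.33 CPM against 28.2 ± 2.87 CPM in wild type, SD, n = 3 each, log2 fold change -0.74, SE 0.148, adjusted p = 0.00372) and in *Dicer* ΔMT/ΔMT (-0.45, SE 0.133, adjusted p = 0.0439). In RNAi and double mutants its values were -0.76 (adjusted p = 0.0990) and -0.64 (adjusted p = 0.0505), and DESeq2 called both. In a search of annotated GENCODE M21 transcripts, not of the genome itself, *Aurkc* was the only one of the 45 with close copies. Its 5 copies (*Gm12463*, *Gm45598*, *Gm6909*, *Gm7207* and *Gm7789*) share at least 50% of its transcript length with an identity of 95% or more, and reads that map to several places were divided, so its level is uncertain. *Gm6909*, *Gm45598* and *Gm7789* were lower too in *Dicer* SOM/SOM, by log2 fold changes of -1.17, -1.23 and -0.95 (adjusted p = 0.000148, 0.00496 and 0.0153). *Gm12463*, the most abundant copy at 11.2 CPM in wild type (-0.41, adjusted p = 0.078), and *Gm7207* (-0.23, adjusted p = 0.553) were not called. *Aurka*, the spindle pole kinase, was lower in *Dicer* ΔMT/ΔMT (-0.27, SE 0.0775, adjusted p = 0.0359). The *Dicer* ΔMT/ΔMT calls of both genes were lost without any 1 of the wild-type samples or without ΔMT/ΔMT replicate 1, 2 or 4 (adjusted p = 0.0589 to 0.154), and that of *Aurkc* also without ΔMT/ΔMT replicate 3 or SOM/SOM replicate 1. *Aurkb*, *Incenp*, *Birc5* and *Cdca8* were called in none of the 6 comparisons, although *Aurkb* was in *Dicer* SOM/SOM without SOM/SOM replicate 1.

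Of the 9 genes of spindle poles and spindle microtubules, *Plk4* and *Ckap5* were lower in *Dicer* SOM/SOM besides the rise of *Prc1*. Of all tested genes 14.2% were lower and 14.5% higher. *Plk4*, the kinase that starts centriole duplication and acts at acentriolar poles in oocytes, was at 295, 318 and 275 CPM in wild type, at 363, 341, 313 and 268 CPM in *Dicer* ΔMT/ΔMT and at 227, 245 and 218 CPM in *Dicer* SOM/SOM. *Dicer* SOM/SOM lay below both other groups. As a log2 fold change, the difference was -0.36 against wild type (SE 0.113, adjusted p = 0.0327) and -0.48 against *Dicer* ΔMT/ΔMT (SE 0.106, adjusted p = 0.0207), and without replicate 3 the values were -0.33 (adjusted p = 0.0719) and -0.45 (adjusted p = 0.0464). The call against wild type was also lost without wild-type replicate 1 or 2 or SOM/SOM replicate 1 (adjusted p = 0.0739 to 0.116), and that against *Dicer* ΔMT/ΔMT without ΔMT/ΔMT replicate 1 or 2 or SOM/SOM replicate 1 (adjusted p = 0.0560 to 0.0672). Among the paired-end samples *Plk4* was at 236 to 345 CPM in heterozygous controls, at 335 and 379 CPM in RNAi mutants and at 285 to 320 CPM in double mutants, without a call. *Ckap5*, a microtubule polymerase, had a log2 fold change of -0.34 in *Dicer* SOM/SOM (SE 0.111, adjusted p = 0.0435), but -0.22 without replicate 3 (adjusted p = 0.0719), and lost its call without any other sample of the fit except SOM/SOM replicate 2, as well as when only the compared groups were fitted (adjusted p = 0.104). *Tpx2*, *Numa1*, *Cep192*, *Pcnt*, *Tacc3* and *Plk1* were called in none of them.

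The 2 runs share no samples, so effects of the SOM/SOM genotype could be set side by side. In *Dicer* SOM/SOM against wild type and in double mutants against heterozygous controls, 5 genes were called higher in both (*Bub1*, *Cenpk*, *Cenpt*, *Stag3* and *Prc1*), 1 lower in both (*Cenpf*) and none in opposite directions. Calls in the same direction in both comparisons made up 14.9% of the 20089 genes tested in both runs. With RNAi mutants in place of double mutants, 4 genes were higher in both (*Bub1*, *Cenpk*, *Stag3* and *Prc1*) and 1 lower in both (*Cenpc1*), against a background of 9.19%. The difference of the SOM/SOM effect between the runs was also tested directly, as RNAi mutants minus controls against *Dicer* SOM/SOM minus wild type. None of the 44 genes passed in edgeR (background 0.00806%, no other tool was run), and 2 had an unadjusted p under 0.05. These were *Plk4*, with a difference of 0.58 (SE 0.190, adjusted p = 0.384), and *Ndc80*, with 0.55 (SE 0.202, adjusted p = 0.443). For *Prc1* and *Stag3* the differences were 0.01 (SE 0.132) and 0.02 (SE 0.239).

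**Figure D4:**
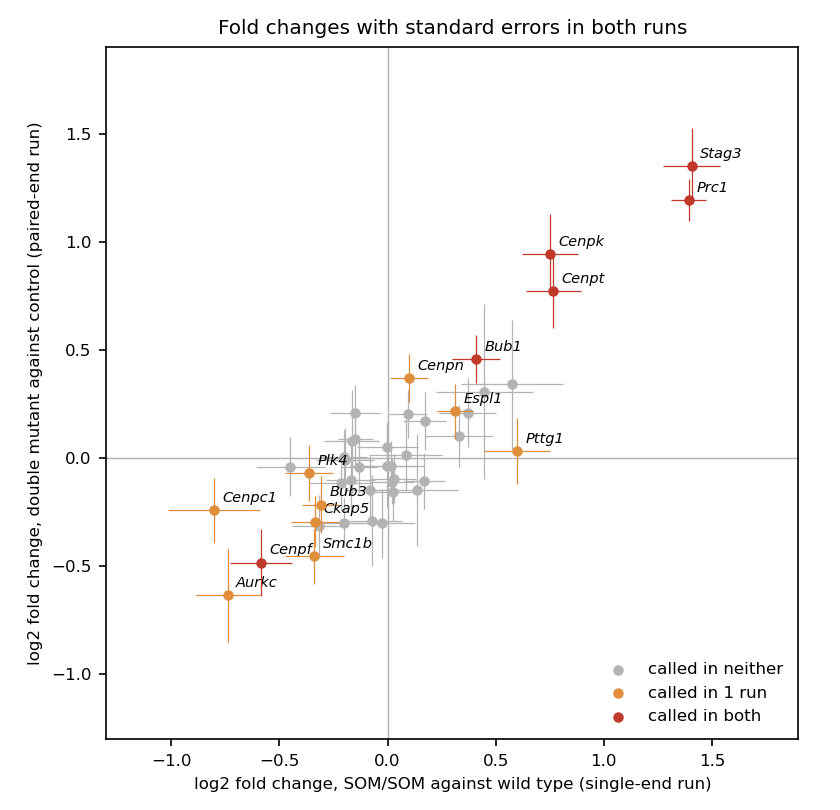
The log2 fold change in *Dicer* SOM/SOM against wild type (single-end run, horizontal) and in double mutants against heterozygous controls (paired-end run, vertical) for the 44 tested genes, with lines of 1 SE. Colours mark genes called in neither, 1 or both comparisons. *Stag3*, *Prc1*, *Cenpk*, *Cenpt* and *Bub1* lie in the upper right and *Cenpf* in the lower left.

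To ask what the loss of functional MILI adds to the loss of RNAi, double mutants were compared with RNAi mutants. None of the 44 genes was called by edgeR or DESeq2, 2 had an unadjusted p under 0.05 in edgeR, and the background was 0.314% of 20989 genes (0.31% higher and 0.00476% lower). The groups did not overlap for 8 genes, against 14.4% of all tested genes. The genes with an unadjusted p under 0.05 were *Cenpc1* (0.51, SE 0.188, adjusted p = 0.743) and *Mis12* (-0.40, SE 0.139, adjusted p = 0.641), and the log2 fold changes of all 44 lay between -0.48 and 0.51. The standard errors, with a median of 0.17 and a highest value of 0.49, limit what could be seen with 2 RNAi mutants. Between both *Dicer* alleles, 5 genes were called, with *Espl1*, *Stag3* and *Prc1* higher and *Ndc80* and *Plk4* lower in *Dicer* SOM/SOM than in *Dicer* ΔMT/ΔMT. The background was 7.35% (4.03% higher and 3.32% lower), and the groups did not overlap for 9 genes (background 21.4%).

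Age differed within the paired-end groups. With a term for age over 30 weeks, 9 genes were called in double mutants, the 8 and *Aurkc*. Among females under 30 weeks only, where 2 controls and 2 double mutants remain, *Prc1* (1.28, adjusted p = 0.00130), *Stag3* (1.23, adjusted p = 0.0224) and *Bub1* (0.61, adjusted p = 0.0444) were called, while *Cenpk* (0.91, adjusted p = 0.0932), *Cenpt* (0.59, adjusted p = 0.182), *Cenpn* (0.46, adjusted p = 0.151), *Cenpf* (-0.43, adjusted p = 0.311) and *Smc1b* (-0.37, adjusted p = 0.288) were not. Both RNAi mutants are under 30 weeks, and against the 2 controls of that age *Prc1* (1.40, adjusted p = 0.00115) and *Stag3* (1.37, adjusted p = 0.0175) were called in them, while *Bub1* (0.48, adjusted p = 0.122), *Cenpk* (0.92, adjusted p = 0.112) and *Cenpc1* (-0.73, adjusted p = 0.0744) were not.

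The samples without replicates were placed beside their controls with no test. The piRNA mutant lay outside the range of the heterozygous controls for 14 of the 44 genes, 6 above and 8 below (31.8%, against 36.1% of all tested genes, 17.8% above and 18.3% below). The *Dicer* ΔMT/WT sample lay outside the range of wild type for 25, 19 above and 6 below (56.8%, against 56.7% of all tested genes). Of all tested genes 28.1% lay above and 28.6% below. The total was thus near the background, while more of the 44 lay above than below in this 1 sample. *Cenpk* was at 21.1 CPM in *Dicer* ΔMT/WT, between wild type and *Dicer* ΔMT/ΔMT, and at 12 CPM in the piRNA mutant, within its controls. *Stag3* was at 5.68 CPM in *Dicer* ΔMT/WT and at 5.65 CPM in the piRNA mutant, just above the controls in both.

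Of 91 further genes of the same machinery, 18 were higher and 24 lower in *Dicer* SOM/SOM (46.15%), beside the 28.6% of all tested genes (14.5% higher and 14.2% lower). Without SOM/SOM replicate 3, 16 were higher and 21 lower, beside 26.6% of all tested genes. In double mutants 9 were higher and 10 lower (20.9%, against 21.2% of all tested genes), in *Dicer* ΔMT/ΔMT 12 and 7 (20.9% against 15.4%), and in RNAi mutants 7 and 2 (9.89% against 10.7%). Of 16 further cohesin genes (other subunits, loaders, acetyltransferases and shugoshins), 7 were lower and 1 higher in *Dicer* SOM/SOM, where 14.2% of all tested genes were lower, and 4 lower and 1 higher in double mutants, where 8.84% were lower. In RNAi mutants 1 of the 16 was lower and 0 higher, where 3.64% of all tested genes were lower. Without SOM/SOM replicate 3, 7 of the 16 were lower and 2 higher. Among tested genes at 10 RPKM or more in the controls of the run, 1400 of 5863 were lower and 556 higher in *Dicer* SOM/SOM (33.4% called). In double mutants 694 of 5415 were lower and 442 higher. Of the 16 cohesin genes, the higher one in *Dicer* SOM/SOM was *Rad21l*, a meiotic kleisin (0.95, SE 0.230, adjusted p = 0.0105), named after its value was seen. In *Dicer* SOM/SOM, 5 of 24 further kinetochore genes were higher and 3 lower, 2 and 3 of 17 checkpoint and anaphase-promoting complex genes, and 10 and 11 of 34 spindle genes, beside the 14.5% and 14.2% of all tested genes. Without SOM/SOM replicate 3 these were 4 and 4, 2 and 3, and 8 and 7. The largest rise was that of *Rangap1*, the GTPase activator of RAN, which drives spindle assembly around chromosomes. *Rangap1* had a log2 fold change of 3.0 in *Dicer* SOM/SOM (SE 0.214, adjusted p = 3.79e-06) and 3.0 in double mutants (SE 0.172, adjusted p = 5.61e-08), and is in the study's list of potential siRNA targets. So are *Ran* itself, at 1.05 in *Dicer* SOM/SOM (adjusted p = 0.00297) and 0.76 in double mutants (adjusted p = 0.0193), *Fbxo5*, an inhibitor of the anaphase-promoting complex, at 0.64 (adjusted p = 0.000942) and 0.38 (adjusted p = 0.190), and *Anapc5*, at -0.23 (adjusted p = 0.0675) and -0.26 (adjusted p = 0.0968).

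Other large changes in *Dicer* SOM/SOM were those of *Knl1*, the kinetochore scaffold for BUB1 and BubR1 (1.22, SE 0.120, adjusted p = 3.21e-05), *Mad2l1bp*, a silencer of the checkpoint (1.17, SE 0.256, adjusted p = 0.00618), *Cdk5rap2*, a pericentriolar protein (1.07, SE 0.125, adjusted p = 0.000104), and *Cenpw*, a histone-fold partner of CENP-T (-1.04, SE 0.154, adjusted p = 0.000529). Without SOM/SOM replicate 3 these genes stayed called, with values of 1.30, 1.01, 1.22 and -1.06, as did *Rangap1* (3.16), *Ran* (1.19) and *Fbxo5* (0.72). *Cenpw* was also lower in double mutants (-1.62, SE 0.176, adjusted p = 2.03e-05). *Mad2l1bp* was scarce, at 1.82, 3.07 and 3.45 CPM in wild type. In the paired-end run it was at 2.36 to 5.22 CPM in heterozygous controls and at 6.36 and 6.62 CPM in RNAi mutants. Double mutants were at 3.86 to 5.13 CPM, and it was called higher in neither mutant. *Hmmr*, which encodes a spindle microtubule-associated protein, was the only gene of the 91 called between double mutants and RNAi mutants. It was at 109, 105, 121 and 115 CPM in double mutants, at 38.7 and 31.2 CPM in RNAi mutants, at 18.2 CPM in the piRNA mutant and at 16.2 to 22.2 CPM in heterozygous controls. All double mutants lay above every other sample of the run. The log2 fold change against RNAi mutants was 1.69 (SE 0.180, adjusted p = 0.000381).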

How the data were processed

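RNA was sequenced from GV oocytes in a single-end and a paired-end run. The authors mapped reads to GRCm38 (mm10) with STAR 2.5.3a and assigned them to genes of GENCODE M15 by featureCounts, ignoring strand and dividing reads that mapped to several places or genes. The deposited table therefore holds expected counts without normalization. Groups came from the genotype labels.

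Expected counts were rounded to whole numbers. Each run was fitted apart over its replicated groups with edgeR 4.0.16 (R 4.3.3). The paired-end fit also held the single piRNA mutant, which adds nothing to the spread, and the single-end fit left out the ΔMT/WT sample. The steps were TMM normalization, filterByExpr (minimum count 10, minimum total 15), the quasi-likelihood F test and Benjamini-Hochberg adjustment over all tested genes, called under 0.05. This left 23151 single-end and 20989 paired-end genes. CPM used effective library sizes, and RPKM divided CPM by exon length. At the lowest depth 3 counts equal 0.464 CPM. The tests were tried on simulated counts in which few genes changed. Small changes were missed there, so a gene without a call may still have changed. Gene symbols were matched for 52403 of 52636 identifiers.

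The genes, the further 91 genes and the markers were chosen with earlier results of these data known. Fold changes are given for genes called in *Dicer* SOM/SOM or double mutants, and sample by sample for genes called in the same direction in both, genes called in *Dicer* SOM/SOM against *Dicer* ΔMT/ΔMT, and *Prc1*. Of the further genes, those called in *Dicer* SOM/SOM or double mutants against controls with a log2 fold change of at least 1 in size and those in the study's siRNA target list are named. *Aurka*, *Rad21l*, *Rccd1* and the copies of *Aurkc* were named after their values were seen. Alternatives were DESeq2 1.42.0, RLE factors, no filter, only the compared groups, a replicate term, terms for age and ribosomal RNA, younger females only, and each sample left out. For the further genes, the fit without SOM/SOM replicate 3 was added after the data were seen. Same-numbered samples did not all deviate together: the correlations of their deviations ran from -0.025 to 0.054 among single-end and from -0.069 to 0.177 among paired-end samples. Small RNAs, isoforms and repeats were not analysed here.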

Additional observations from a re-analysis of the deposited data

Results flagged for a closer look

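In groups of 4 samples, a sample was listed when its gap to the nearest other exceeded Dixon's 95% critical value as a share of the group's range. Of 51 groups (17 genes called in any comparison, in *Dicer* ΔMT/ΔMT, double mutants and heterozygous controls), 5 held such a sample, and chance gives about 1 in 20. Heterozygous control replicate 2 was low for *Cenpn* (172 CPM against 205 to 207 CPM in the others) and *Plk4* (236 CPM against 334 to 345 CPM). Heterozygous control replicate 2o was high for *Smc1b* (49.5 CPM against 41.2 to 41.9 CPM). Double mutant replicate 2o was high for *Cenpt* (25.3 CPM against 18.0 to 19.1 CPM), and double mutant replicate 2 for *Prc1* (1062 CPM against 912 to 928 CPM). Without double mutant replicate 2o or heterozygous control replicate 2o, *Smc1b* and *Cenpf* were not called in double mutants.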

How the results depend on the processing

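Of 624 alternative values of 39 fold changes, 507 kept their call, 117 lost it and none changed sign. *Prc1* in all 5 of its called comparisons, and *Stag3* in the 4 against controls, kept theirs throughout. Counts of called genes in alternative fits are given here without the share of all tested genes called in the same fit. That share can change too: for *Dicer* SOM/SOM it was 28.6% in the main fit and 26.6% without SOM/SOM replicate 3. A changed count is therefore not a result about these genes alone. With no filter on low counts, *Dicer* ΔMT/ΔMT against wild type gave 5 called genes and *Dicer* SOM/SOM against *Dicer* ΔMT/ΔMT gave 3, and with only the compared groups the latter also gave 3, while *Dicer* SOM/SOM against wild type gave 9, without *Bub3*, *Espl1*, *Pttg1* and *Ckap5*, and double mutants 7, without *Cenpf*. Among females under 30 weeks, 2 genes were called in RNAi mutants and 3 in double mutants. Replicate numbers were not taken as pairs. For double mutants and controls, the deviations of same-numbered samples correlated at 0.135 (1o), 0.0276 (2o) and 0.177 (2). Differently numbered samples of that run reached at most 0.107. A replicate block was therefore also fitted. It gave 2 calls in RNAi mutants and 5 in double mutants, 7 and 14 against wild type in *Dicer* ΔMT/ΔMT and SOM/SOM, 4 between these and 0 between double and RNAi mutants. In double mutants the block lost *Bub1*, *Cenpf*, *Cenpn* and *Smc1b* and gained *Aurkc*. The causes were not tested. In the paired-end run the samples numbered 2 or 2o were low in *Gm42418* except RNAi mutant 2, and a term for that split gave 6 calls in RNAi mutants and 11 in double mutants.

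With each sample left out in turn, calls ranged from 7 (without wild-type replicate 1) to 14 in *Dicer* SOM/SOM. Those of *Dicer* ΔMT/ΔMT ranged from 4 (without wild-type replicate 1 or 3 or ΔMT/ΔMT replicate 2) to 12 (without SOM/SOM replicate 3), and between both mutants from 2 (without ΔMT/ΔMT replicate 1 or 2) to 4. In RNAi mutants they ranged from 2 (without RNAi replicate 2, 3 without replicate 1) to 5, where the lone sample is assumed to vary like the other groups, in double mutants from 6 to 9, and between double and RNAi mutants they were 0 throughout. DESeq2 called 15 genes in *Dicer* SOM/SOM and 9 in double mutants. The lowest depth, in SOM/SOM replicate 3, limits what can be seen of scarce genes there.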
